A study of Mus musculus with 163 samples.

Results

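The 8 genes described here, Spesp1, Manba, Sis, Pak3, Naip6, Igsf21, Mpo and Tmem51, were selected on their read counts, which differed strongly between oocytes derived from induced pluripotent stem cells (iPSCs) and oocytes derived from embryonic gonads. They were found by gene identifier among the 21950 genes of the count table. The contrast of iPSC-derived with gonad-derived oocytes therefore chose them, and its values are given below as a description only. Measures that played no part in the choice are the levels in oocytes grown in vivo and in oocytes from cultured follicles.

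Transcripts of single mouse oocytes were counted after Smart-seq2, which makes cDNA along the whole of polyadenylated RNAs from 1 cell. Oocytes were growing (GROs) or fully grown (FGOs). The iPSC-derived oocytes (23 GROs and 24 FGOs) came from BVSC-iPSC, a single female line that carries Blimp1-Venus and Stella-ECFP reporters and was made from adult tail tip fibroblasts. Its primordial germ cell-like cells were sorted and joined with gonadal somatic cells of Swiss Webster embryos to form reconstituted ovaries in culture. The gonad-derived oocytes (24 GROs and 24 FGOs) came from dissociated E12.5 gonads, re-aggregated and taken through a similar culture. The 6 dpp FGOs (24 oocytes) grew in cultured follicles that had been isolated 6 days post partum (dpp), and the in vivo oocytes (24 GROs and 20 FGOs) matured in the animal. The sources used here name Swiss Webster for the E12.5 gonads that gave the somatic cells, and name no strain of their own for the gonads behind the gonad-derived oocytes, for the 6 dpp and in vivo oocytes or for the iPSC line. The source of an oocyte, its genetic background and the single line behind all iPSC-derived oocytes cannot be told apart.

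A growing oocyte builds up a store of maternal transcripts, and at the end of growth transcription stops, so the RNA of an FGO was made earlier and kept. Pluripotent cells turned into germ cell-like cells, and E12.5 germ cells, both enter this growth in culture inside reconstituted ovaries, whereas follicles at 6 dpp already hold an oocyte formed in the animal. None of these genes is best known from the oocyte: the products of most are described for sperm, lysosomes, intestine, neurons, macrophages and neutrophils. Spesp1 encodes an acrosomal protein of sperm, Manba the lysosomal beta-mannosidase, Sis the intestinal disaccharidase sucrase-isomaltase and Pak3 a p21-activated kinase of neurons. Naip6 encodes a cytosolic sensor of bacterial flagellin, Igsf21 a synaptic adhesion molecule, Mpo the myeloperoxidase of neutrophil granules and Tmem51 a transmembrane protein.

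The genes are spread over several chromosomes, with Manba and Sis on chromosome 3 and Igsf21 and Tmem51 on chromosome 4. In RefSeq on GRCm38.p6, Spesp1 is at chr9:62270729-62282179 and Pak3 at chrX:143518366-143797796. Sis lies at chr3:72888557-72967863 and Manba at chr3:135485611-135571404. Naip6 is at chr13:100281121-100316616 and Mpo at chr11:87793784-87804412. Igsf21 lies at chr4:140026852-140246983 and Tmem51 at chr4:142030990-142084928. The deposited counts cover exons of 1 transcript of each gene.

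The 250 bases before the annotated start are shown for Spesp1, Manba, Sis and Naip6, 4 of the 5 genes that were higher in iPSC-derived oocytes, to show how unlike each other these starts are. Sequences are from RefSeq (GRCm38.p6), 5′ to 3′ on the strand of the gene, and capitals mark CG dinucleotides and matches to TATAAA on either strand.
Spesp1: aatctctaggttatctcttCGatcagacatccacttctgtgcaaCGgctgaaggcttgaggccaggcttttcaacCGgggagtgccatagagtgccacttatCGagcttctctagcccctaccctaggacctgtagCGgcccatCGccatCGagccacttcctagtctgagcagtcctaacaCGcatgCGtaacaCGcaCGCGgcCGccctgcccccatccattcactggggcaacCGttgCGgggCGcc
Manba: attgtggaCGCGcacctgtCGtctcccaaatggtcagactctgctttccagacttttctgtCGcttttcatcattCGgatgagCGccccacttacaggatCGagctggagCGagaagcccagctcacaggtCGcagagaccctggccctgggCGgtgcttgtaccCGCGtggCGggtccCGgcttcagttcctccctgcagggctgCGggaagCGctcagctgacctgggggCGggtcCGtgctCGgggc
Sis: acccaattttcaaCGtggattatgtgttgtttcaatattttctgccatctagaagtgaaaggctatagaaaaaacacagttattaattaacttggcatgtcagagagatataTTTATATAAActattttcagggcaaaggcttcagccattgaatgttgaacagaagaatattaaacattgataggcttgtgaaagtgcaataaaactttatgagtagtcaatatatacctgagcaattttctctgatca
Naip6: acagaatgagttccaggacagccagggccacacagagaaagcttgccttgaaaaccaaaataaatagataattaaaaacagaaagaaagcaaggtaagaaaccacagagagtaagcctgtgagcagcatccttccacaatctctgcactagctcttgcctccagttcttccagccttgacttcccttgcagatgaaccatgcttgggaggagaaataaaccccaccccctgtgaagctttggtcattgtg

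These windows are chr9:62282180-62282429 (minus strand) for Spesp1, chr3:135485361-135485610 (plus strand) for Manba, chr3:72967864-72968113 (minus strand) for Sis and chr13:100316617-100316866 (minus strand) for Naip6. The Spesp1 window holds 16 CG dinucleotides and the Manba window 19, more than 74.6% and 80.3% of the 32851 RefSeq starts with a window of this length. The Sis window holds 1 CG, and 7.87% of starts hold fewer. The Naip6 window holds none. Over all starts the median was 6, with quartiles of 2 and 16, and 92.1% of windows held at least 1. Sis alone among the 8 genes has TATAAA, once on each strand and overlapping, and 12.4% of all windows hold it. CACGTG was found before 1 of the 3 annotated starts of Pak3, which have 10, 3 and 3 CG dinucleotides, and 6.02% of all windows hold it. TAATTG was found before none of the 8 genes, against 7.17% of all windows. The windows of Igsf21, Tmem51 and Mpo hold 17, 13 and 2 CG dinucleotides. The genes that were higher in iPSC-derived oocytes thus span starts rich in CG, starts poor in CG and a start with TATAAA.

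The median total was 6.93 M reads per oocyte (M, 1000000 reads), from 2.17 M to 13.7 M, and the reads summed over a group lay between 145 M and 166 M. All 12 oocyte markers checked (Gdf9, Zp3 and others) had at least 1 CPM (reads in each 1000000 counted) in every group. Granulosa cell markers summed to group medians between 129 and 359 CPM. Over each group Esr2 made most of that sum, at 81.1 to 244 CPM. Wt1, Amhr2 and Fst stayed below 1 CPM in every group, so the sum is no measure of granulosa cell content. Theca and stroma markers summed to group medians between 1.39 and 3.47 CPM. Blood markers (6 genes) summed to at most 1.44 CPM in any oocyte. Among 6 dpp FGOs, oocyte 12 stood apart with 1848 CPM of granulosa markers and oocyte 10 with 45.4 CPM of theca and stroma markers. The labels name no animal or culture behind an oocyte, so each group counts as 1 sample and no test or p-value is given. Pooled CPM are reads summed over a group, with exact Poisson 95% intervals that cover counting error only, and each ratio was taken on the log2 scale after 0.5 CPM was added to both pooled values, so that it understates the change of low genes. CPM is a share of the counted reads and not an amount per oocyte.

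At a 4-fold limit (a ratio of 2 or -2), 5 of the 8 genes were higher in iPSC-derived than in gonad-derived GROs, where 0.345% of the 13029 genes tested were. None of the 8 was 4-fold lower in GROs (0.23% of genes). In FGOs the same 5 genes were 4-fold higher (0.442% of 12889 genes) and Igsf21, Mpo and Tmem51 were 4-fold lower (0.272%). Of the 8 genes labelled as marking iPSC-derived oocytes at both stages, Spesp1, Manba, Sis, Pak3 and Naip6 were thus past this limit at both. At a pseudocount of 2 CPM only Spesp1 was, since Pak3 (1.96) and Naip6 (1.04) fell short in GROs and Manba (1.75) and Sis (1.25) in FGOs. Naip6 lay just inside the limit in GROs with a ratio of 2.04, and Tmem51 just outside with -1.70. With means of logs over oocytes in place of pooled CPM, Naip6 dropped out (1.32) and Tmem51 came in (-2.24). For Spesp1, Manba, Sis and Pak3 every iPSC-derived oocyte was above every gonad-derived oocyte at both stages, which was so for 0.322% of genes in GROs and 0.295% in FGOs, and for 18 of the 12396 genes that passed the filter at both stages. Since these values chose the genes, nothing is read from the counts. All 4 of these genes were above 1 CPM together in 23 of 23 iPSC-derived GROs and 22 of 24 iPSC-derived FGOs, and in 0 oocytes of every other group, the in vivo and 6 dpp groups included.

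**Figure D1:**
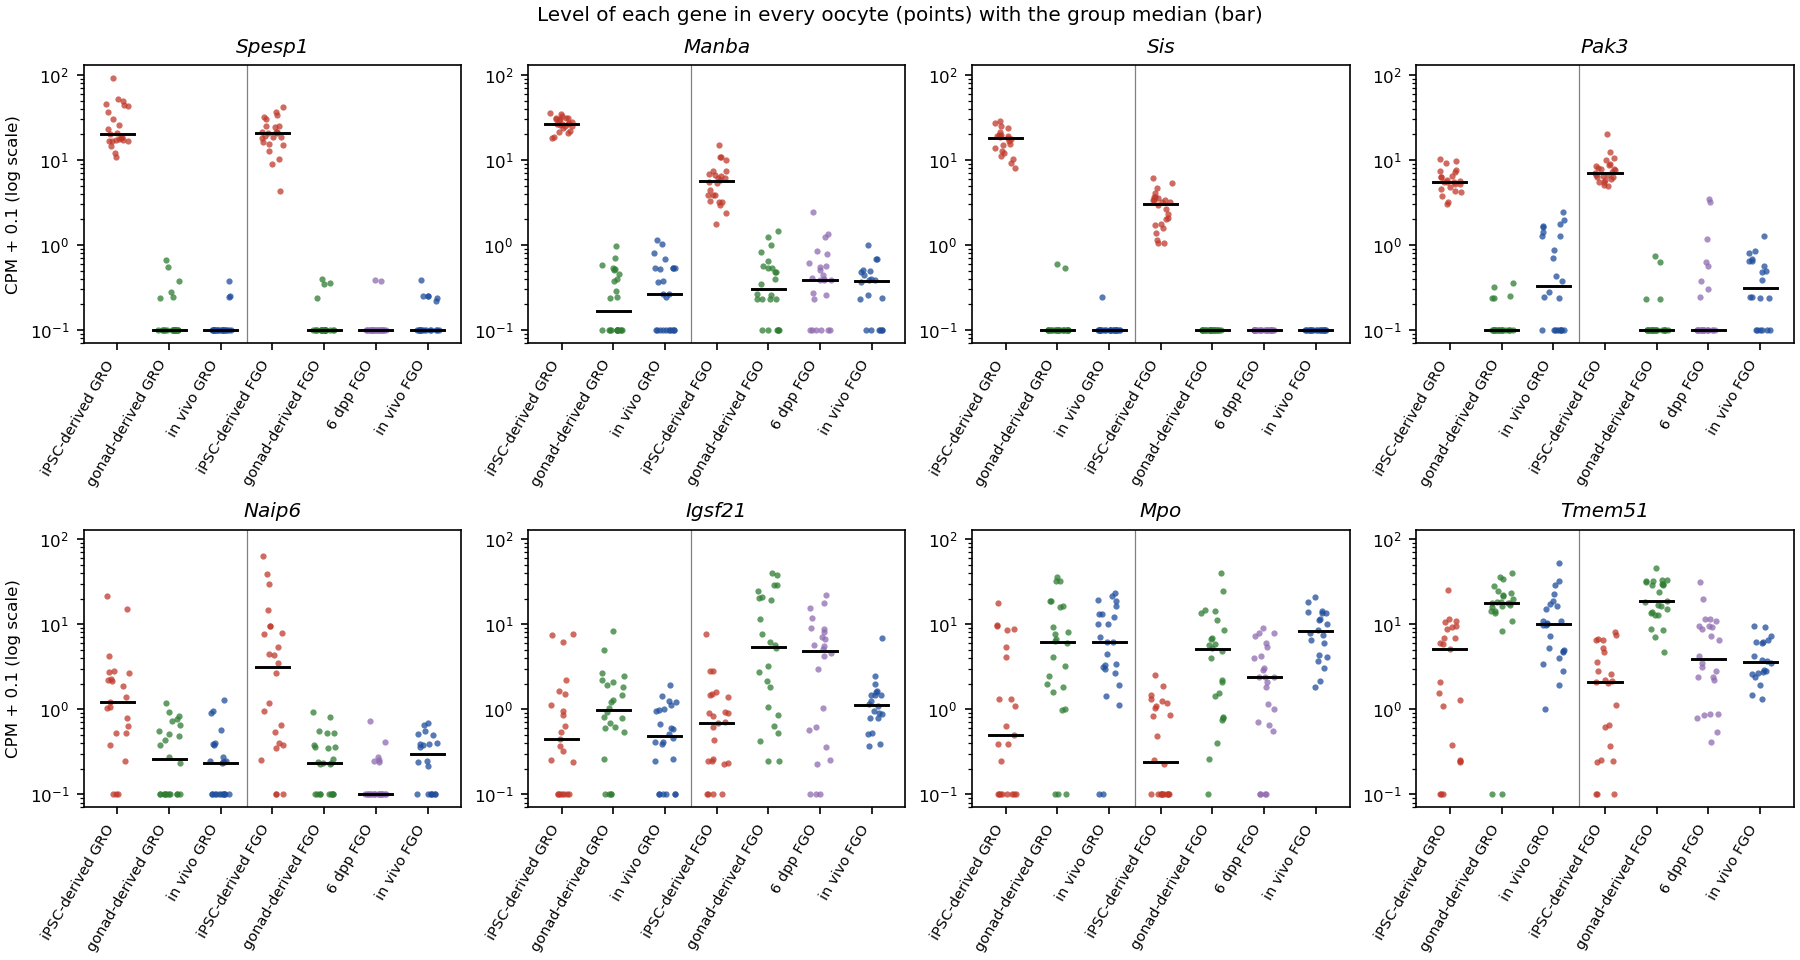
CPM + 0.1 on a log scale in each oocyte (points) with the group median (bar), for the 8 genes; the vertical line parts GROs from FGOs. Spesp1, Manba, Sis and Pak3 show iPSC-derived oocytes apart from gonad-derived ones at both stages. Naip6 and Igsf21 have oocytes below 1 CPM in every group. So do Mpo, except in in vivo FGOs (lowest 1.72 CPM), and Tmem51, except in gonad-derived (4.66 CPM) and in vivo FGOs (1.21 CPM).

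Spesp1, the sperm acrosomal gene, was the highest of the 8 genes per length of transcript in iPSC-derived GROs. It ranged from 10.7 to 92.1 CPM in the 23 iPSC-derived GROs (median 20.3) and from 4.20 to 41.5 CPM in the 24 iPSC-derived FGOs (median 20.5). No oocyte of any other group passed 0.573 CPM, so no values overlapped. The medians of iPSC-derived GROs and FGOs were close, although the highest 6 GROs lay above all FGOs.

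Pooled, Spesp1 stood at 30.9 CPM (30.1 to 31.8, 5087 reads) in iPSC-derived GROs and at 0.0700 CPM (11 reads) in gonad-derived GROs, 442-fold apart with a counting interval of 247 to 885. In FGOs it was 21.2 CPM against 0.0431 CPM. The in vivo GROs held 4 reads of it, the in vivo FGOs 7 and the 6 dpp FGOs 4, each in a whole group. Reads of Spesp1 were thus found almost only in iPSC-derived oocytes, and the other 5 groups lay between 0.0247 and 0.0700 CPM. Of 13 other counted genes of sperm acrosome and gamete fusion, none was 4-fold apart at either stage. In GROs 6 of them passed the filter, with a median ratio of -0.18 beside 0.00 over all genes, and 5 in FGOs, with a median of -0.12 beside -0.08. Over this and the other lists of related genes below, 57 genes passed in GROs and 55 in FGOs. Of all genes tested, 0.345% were 4-fold higher and 0.23% lower in GROs, and 0.442% and 0.272% in FGOs. Lists this small would thus rarely hold a gene past the limit, and nothing is read from finding none in any of them. Izumo1, the sperm fusion protein, stayed at 0.222 CPM or less in every group. Its egg receptor Izumo1r was at 340 CPM in iPSC-derived and 458 CPM in gonad-derived GROs.

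Manba was the most even of the 8 genes in iPSC-derived GROs. It ranged from 18.2 to 35.3 CPM there (median 26.6), with an SD of 0.26 on the log2(CPM + 1) scale, against 0.76 for Spesp1. In iPSC-derived FGOs it ranged from 1.66 to 15.0 CPM (median 5.53), below every iPSC-derived GRO. Gonad-derived GROs reached 0.871 CPM and gonad-derived FGOs 1.38 CPM, so neither stage overlapped. The gonad-derived FGO with 1.38 CPM was oocyte 22, 1 of the 2 shallowest of its group.

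Pooled, iPSC-derived GROs had 27.0 CPM of Manba (26.2 to 27.8) and gonad-derived GROs 0.191 CPM (0.129 to 0.273), a ratio of 5.31. In FGOs it was at 5.80 CPM against 0.314 CPM, a ratio of 2.95. The groups that the choice did not use had 0.278 CPM (in vivo GROs), 0.262 CPM (in vivo FGOs) and 0.414 CPM (6 dpp FGOs), and their counting intervals overlap those of the gonad-derived groups in 5 of 6 pairings. The highest 6 dpp value, 2.31 CPM, was in oocyte 12, and 2 iPSC-derived FGOs lay below it. Of 13 other counted genes of lysosomal glycoprotein breakdown, 11 passed the filter at each stage and none was 4-fold apart. Their median ratio was 0.18 in GROs and -0.29 in FGOs, beside 0.00 and -0.08 over all genes. Naglu, which encodes the N-acetylglucosaminidase of heparan sulfate breakdown, had the lowest ratio of the list in FGOs (-1.08).

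Sis was found in every iPSC-derived oocyte and in hardly any other. It ranged from 7.91 to 28.8 CPM in iPSC-derived GROs (median 18.2) and from 0.942 to 6.03 CPM in iPSC-derived FGOs (median 2.97). In gonad-derived GROs it had 5 reads in all, in 2 of 24 oocytes, and in in vivo GROs 1 read. The 24 gonad-derived, 24 6 dpp and 20 in vivo FGOs held 0 reads, which allows up to 0.0185, 0.0188 and 0.0207 CPM (3 reads over each group).

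Pooled, iPSC-derived GROs had 17.7 CPM of Sis (17.1 to 18.4), where gonad-derived GROs had 0.0318 CPM (0.0103 to 0.0743). In iPSC-derived FGOs it was at 2.76 CPM (2.51 to 3.02), 149-fold the level that 3 reads would give in gonad-derived FGOs. For in vivo FGOs this fold was 133. With counting error on both sides, Sis was at least 121-fold higher than in gonad-derived FGOs and 108-fold higher than in in vivo FGOs. Like Manba, Sis was lower in every iPSC-derived FGO than in every iPSC-derived GRO. Of 14 other counted genes of the intestinal brush border, none was 4-fold apart, with 6 past the filter in GROs (median ratio 0.31) and 7 in FGOs (-0.10). Lct, the lactase gene, was at 4.73 CPM in iPSC-derived and 2.62 CPM in gonad-derived GROs. Cdx1, an intestinal transcription factor gene, had the highest ratio of the list at both stages (1.06 and 0.84). It was at 0.571 CPM in iPSC-derived against 0.0127 CPM in gonad-derived GROs, and at 0.439 against 0.0246 CPM in FGOs. Only the added 0.5 CPM kept Cdx1 within the 4-fold limit. In the in vivo and 6 dpp groups Cdx1 stayed at 0.0314 CPM or less. The partner disaccharidase gene Mgam had 0.237 and 0.166 CPM in iPSC-derived and gonad-derived GROs.

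Pak3 also passed 1 CPM in several in vivo GROs, which the other 4 genes higher in iPSC-derived oocytes did in at most 1. It ranged from 2.95 to 10.2 CPM in iPSC-derived GROs (median 5.45) and from 4.86 to 20.0 CPM in iPSC-derived FGOs (median 7.02). Gonad-derived oocytes reached 0.258 CPM in GROs and 0.643 CPM in FGOs, so neither stage overlapped. Of the in vivo GROs, 8 of 24 were above 1 CPM and the highest had 2.35 CPM, still below every iPSC-derived oocyte.

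Pooled, iPSC-derived GROs had 5.93 CPM of Pak3 (5.56 to 6.31) and gonad-derived GROs had 0.0382 CPM (0.0140 to 0.0831). In FGOs it was at 7.76 CPM (7.34 to 8.20) against 0.0616 CPM (0.0295 to 0.113). In vivo GROs had 0.630 CPM (0.514 to 0.765), which is 16.5-fold above gonad-derived GROs as a plain quotient (counting interval 7.32 to 46.0). With 0.5 CPM added to both the ratio of gonad-derived to in vivo GROs was -1.07, within the 4-fold limit, and at 0.1 CPM it was -2.40. In vivo FGOs had 0.317 CPM. Gonad-derived oocytes were thus the lowest groups for Pak3 and iPSC-derived the highest, with in vivo and 6 dpp oocytes between them. In 6 dpp FGOs it stood at 0.370 CPM, and at 0.242 CPM without oocyte 12, which had 3.39 CPM. Within groups, Pak3 went with the summed theca and stroma markers at r = 0.40 over all oocytes, and at r = 0.33 without that oocyte. With the summed granulosa markers r was 0.30, and 0.16 without it. Sis went with the theca and stroma markers at r = 0.22 (0.23 without it) and Manba at 0.16 (0.09), and for the other 5 genes r lay between -0.10 and 0.04. The part of these markers in the values of Pak3, Sis and Manba was not tested. Of 14 other counted p21-activated kinases and partners, none was 4-fold apart, with 11 past the filter in GROs (median ratio -0.12) and 12 in FGOs (-0.17). Of its relatives, Pak1, Pak2, Pak4 and Pak7 were between 19.9 and 90.2 CPM in iPSC-derived and gonad-derived GROs, with ratios between -0.72 and -0.06. Pak6 stayed at 0.228 CPM or less in every group.

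Naip6 differed from the other 4 in being patchy. It was at 0 CPM in 3 of 23 iPSC-derived GROs, had a median of 1.12 CPM and reached 21.1 CPM. In iPSC-derived FGOs it was at 0 CPM in 3 of 24 oocytes, had a median of 3.01 CPM and reached 63.2 CPM. The 3 highest oocytes carried 63.9% of the summed CPM of iPSC-derived GROs and 64.4% of that of FGOs. Groups overlapped at both stages, since 12 of 23 GROs and 15 of 24 FGOs lay above every gonad-derived oocyte and the others did not.

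Pooled, Naip6 was at 2.70 CPM (2.45 to 2.96) against 0.280 CPM (0.204 to 0.376) in gonad-derived GROs and at 8.91 CPM (8.46 to 9.38) against 0.197 CPM (0.135 to 0.278) in gonad-derived FGOs. Without iPSC-derived GRO 17, the highest, the ratio in GROs was 1.63 in place of 2.04. The ratio of the medians over oocytes was 1.30 there. For FGOs the medians gave 2.47 and the means of logs 2.25, in place of 3.76 pooled. In vivo GROs and FGOs had 0.210 and 0.214 CPM, and 6 dpp FGOs 0.0565 CPM. Naip6 has close copies: 12.0% of the 75-base windows of its GENCODE transcripts occur in transcripts of 5 other genes, most with Naip5. Naip5 stood at 0.247 CPM or less in every group. Naip1, the next gene on the chromosome with at least 1 CPM in a group, had 0.784 and 1.02 CPM in iPSC-derived and gonad-derived GROs. Only uniquely mapped reads were counted, so reads from these windows are missing and the Naip6 values are uncertain. Of 10 other counted genes of the NAIP inflammasome, none was 4-fold apart, with 5 past the filter in GROs (median ratio 0.72 beside 0.00 over all genes) and 4 in FGOs (0.09 beside -0.08). Nlrc4, the partner that NAIP proteins activate, was at 63.2 CPM in iPSC-derived and 61.8 CPM in gonad-derived FGOs. Pycard and Gsdmd, an inflammasome adaptor and a pore-forming effector, had ratios of 1.17 and 1.19 in GROs. Il1b had 0 reads in every group.

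Igsf21 did not mark iPSC-derived oocytes in GROs at all. It ranged from 0 to 7.55 CPM in iPSC-derived GROs (median 0.345) and from 0 to 8.22 CPM in gonad-derived GROs (median 0.874), so the groups overlapped nearly throughout. In gonad-derived FGOs it ranged from 0.145 to 39.9 CPM (median 5.34), and 9 of 24 lay above the highest iPSC-derived FGO, which had 7.54 CPM (median 0.598). The values in gonad-derived FGOs were spread over the whole range, with 7 of 24 oocytes at or under 1 CPM.

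Pooled, iPSC-derived GROs had 1.33 CPM of Igsf21 (1.16 to 1.52) and gonad-derived GROs had 1.45 CPM (1.27 to 1.65), with overlapping counting intervals and a ratio of -0.09. In FGOs it was at 1.05 CPM (0.903 to 1.22) against 11.8 CPM (11.3 to 12.3), a ratio of -2.99. In vivo FGOs had 1.29 CPM (1.11 to 1.49), an interval that overlaps that of iPSC-derived FGOs. The 6 dpp FGOs had 5.57 CPM (5.21 to 5.95), with 8 of 24 above every in vivo FGO and 6 of 24 below. Of the gonad-derived FGOs 10 lay above every in vivo FGO and 2 below, and of the iPSC-derived FGOs 1 lay above and 9 below. The order of the pooled levels in FGOs was therefore gonad-derived, 6 dpp, and then in vivo and iPSC-derived together. None of 20 other counted genes of synaptic adhesion was 4-fold apart, with 11 past the filter at each stage and median ratios of 0.01 in GROs and 0.04 in FGOs. Nrxn2, a neurexin gene, stayed at 0.547 CPM or less in every group, and Nlgn1, a neuroligin gene, was at 52.4 CPM in iPSC-derived and 77.0 CPM in gonad-derived FGOs.

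Mpo had its lowest pooled level in iPSC-derived oocytes at each stage. It ranged from 0 to 17.8 CPM in iPSC-derived GROs (median 0.398), from 0 to 35.7 CPM in gonad-derived GROs (median 6.10) and from 0 to 22.9 CPM in in vivo GROs (median 6.05). Among FGOs it ranged from 0 to 2.40 CPM in iPSC-derived oocytes (median 0.139), from 0 to 40.1 CPM in gonad-derived (median 4.97), from 0 to 8.89 CPM in 6 dpp (median 2.29) and from 1.72 to 20.6 CPM in in vivo oocytes (median 8.13). GROs overlapped widely, while 22 of 24 iPSC-derived FGOs lay below every in vivo FGO.

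Pooled, iPSC-derived GROs had 2.95 CPM of Mpo (2.69 to 3.22), gonad-derived GROs 9.82 CPM (9.33 to 10.3) and in vivo GROs 8.25 CPM (7.81 to 8.70). In FGOs it was at 0.548 CPM (0.441 to 0.672), 7.70 CPM (7.28 to 8.14), 2.94 CPM (2.68 to 3.22) and 8.93 CPM (8.45 to 9.43) in the iPSC-derived, then gonad-derived, then 6 dpp and then in vivo group. The ratio of iPSC-derived to gonad-derived oocytes was -1.58 in GROs and -2.97 in FGOs. At a pseudocount of 2 CPM the ratio in FGOs was -1.93, within the 4-fold limit. In GROs the ratio of the medians was -2.88, past the 4-fold limit that the pooled ratio did not reach. Other myeloid genes were at or near 0: S100a8 had 0 reads in every group, Elane at most 0.00628 CPM and Ctsg at most 0.00690 CPM. Of 17 other counted genes of myeloid granules and peroxidases, none was 4-fold apart, with 7 past the filter in GROs (median ratio 0.09) and 5 in FGOs (-0.05). The peroxidasin gene Pxdn had the highest ratio in FGOs (1.95, 20.7 against 4.99 CPM). Exons of Mpo share 512 bases with Gm11505, a gene on the opposite strand in GENCODE, and strand use in the counting is not stated, so over that overlap, 6.94% of the 75-base windows of Mpo transcripts, reads of the 2 cannot be told apart.

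Tmem51 had its highest pooled level in gonad-derived oocytes at each stage. It ranged from 0 to 24.9 CPM in iPSC-derived GROs (median 4.96), from 0 to 39.9 CPM in gonad-derived GROs (median 17.8) and from 0.897 to 52.9 CPM in in vivo GROs (median 9.85). In gonad-derived GROs 2 oocytes were at 0 CPM and the other 22 at 8.32 CPM or more. In FGOs it ranged from 0 to 8.08 CPM in iPSC-derived (median 2.01) and from 4.66 to 45.7 CPM in gonad-derived oocytes (median 18.5). Of the gonad-derived FGOs 22 of 24 lay above every iPSC-derived FGO, and 20 of 24 above every in vivo FGO, whose values ran from 1.21 to 9.51 CPM (median 3.49). The 6 dpp FGOs ran from 0.314 to 31.6 CPM (median 3.77).

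Pooled, iPSC-derived GROs had 5.41 CPM of Tmem51 (5.06 to 5.78), gonad-derived GROs 18.6 CPM (18.0 to 19.3) and in vivo GROs 12.9 CPM (12.4 to 13.5). In FGOs it was at 2.65 CPM (2.41 to 2.91), 22.1 CPM (21.3 to 22.8), 6.53 CPM (6.14 to 6.94) and 4.27 CPM (3.94 to 4.62) in the iPSC-derived, then gonad-derived, then 6 dpp and then in vivo group. The ratio of iPSC-derived to gonad-derived oocytes was -1.70 in GROs and -2.84 in FGOs. Set beside in vivo FGOs, iPSC-derived FGOs had a ratio of -0.60 and gonad-derived FGOs one of 2.24. The 6 dpp value was 5.46 CPM without oocyte 12, which had 31.6 CPM. Exons of Tmem51 share 243 bases with Tmem51os1 on the opposite strand, and over that overlap, 9.38% of its 75-base windows, the 2 cannot be told apart either.

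Ordered by level per length (RPKM, reads per kilobase of deposited exon length in each 1000000 counted), the genes in iPSC-derived GROs ran from Spesp1 (10.0 RPKM) and Manba (8.70) over Tmem51 (2.71) and Sis (2.25) to Mpo (0.949), Pak3 (0.667), Igsf21 (0.555) and Naip6 (0.522). In iPSC-derived FGOs the level of Spesp1 was 6.86 RPKM, followed by Manba (1.87), Naip6 (1.72), Tmem51 (1.33), Pak3 (0.874), Igsf21 (0.439), Sis (0.350) and Mpo (0.176). In in vivo FGOs Mpo (2.88 RPKM) and Tmem51 (2.14) led, Igsf21 followed at 0.538, and the other 5 genes were at 0.0845 RPKM or less.

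The comparisons with in vivo and 6 dpp oocytes share libraries with the contrast that chose the genes, and their values stand side by side here. Against in vivo oocytes, iPSC-derived GROs were at least 4-fold apart for 5 of the 8 genes (1.26% of all genes tested) and iPSC-derived FGOs for 6 (2.07%), Mpo being the sixth. Against 6 dpp FGOs, iPSC-derived FGOs were 4-fold apart for 5 (1.25%), with Igsf21 next at a ratio of -1.97. Gonad-derived GROs were 4-fold apart from in vivo GROs for none of the 8 (0.704%), of which 4 passed the filter. Gonad-derived FGOs were 4-fold apart from in vivo FGOs for 2, Igsf21 and Tmem51 (0.555%), with 3 past the filter, and from 6 dpp FGOs for none (0.432%), with 5 past it. The 4-fold call of Naip6 against in vivo GROs (ratio 2.17) was lost with medians (1.35), with means of logs (1.44), after thinning (1.81), without iPSC-derived GRO 17 (1.77) and at a pseudocount of 2 CPM (1.09). At that pseudocount Pak3 (1.59) was lost against in vivo GROs too, and Manba and Sis against in vivo FGOs (1.79 and 1.25) and against 6 dpp FGOs (1.69 and 1.25). Igsf21 between gonad-derived and in vivo FGOs (2.78) was under the limit with medians (1.94) and means of logs (1.76). Mpo between iPSC-derived and in vivo GROs was past it with medians (-2.87), where the pooled ratio was -1.34. Against 6 dpp FGOs, Igsf21 came past it with medians (-2.25), after thinning (-2.04) and without iPSC-derived FGO 4 (-2.27), and Mpo with medians (-2.12). A pseudocount of 0.1 CPM also put both past it there (Igsf21 -2.30, Mpo -2.23). Tmem51 between gonad-derived and 6 dpp FGOs (1.68) was past it with medians (2.15) and means of logs (2.10).

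**Figure D2:**
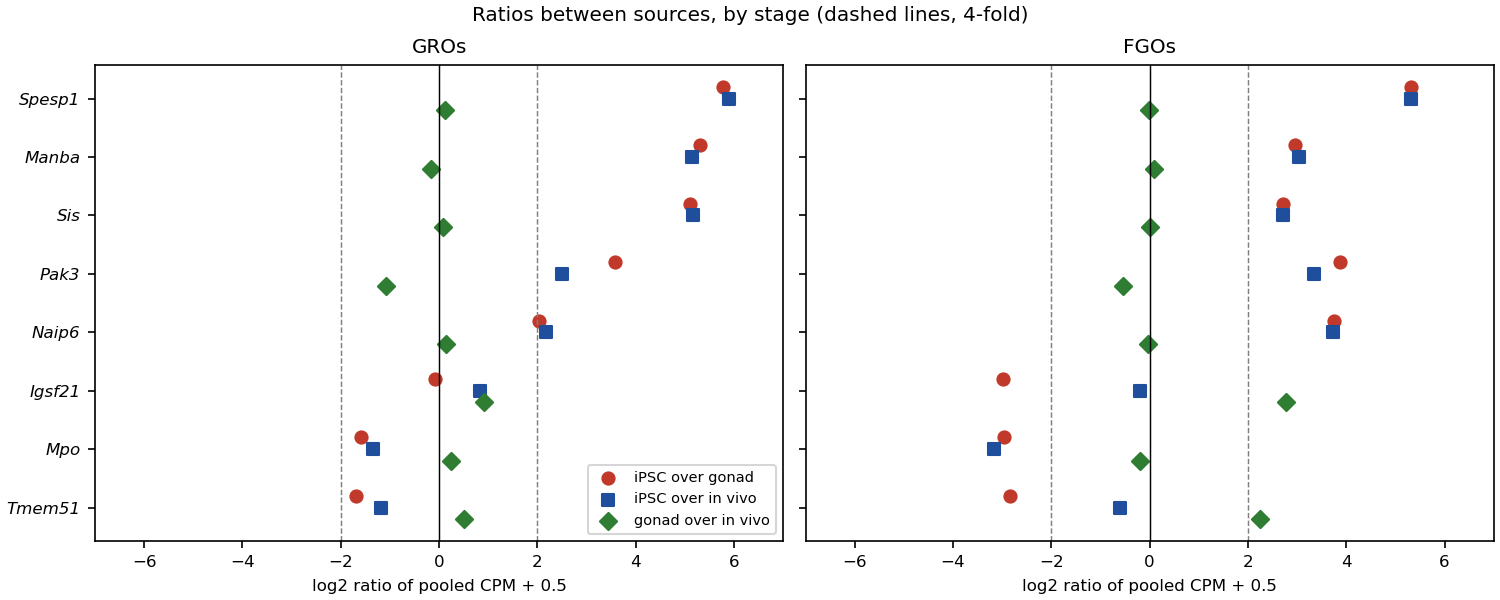
log2 ratios of pooled CPM + 0.5 between sources for the 8 genes in GROs (left) and FGOs (right); dashed lines mark 4-fold and each point is 1 ratio of 2 pooled groups without replicates. For the upper 5 genes both iPSC ratios lie together on the right and the gonad over in vivo ratio lies between -1.07 and 0.14, whereas in FGOs Igsf21 and Tmem51 have gonad over in vivo ratios of 2.78 and 2.24.

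The 2 comparisons that share no library with the choice were in vivo growth and 6 dpp against in vivo FGOs. Between in vivo GROs and in vivo FGOs none of the 8 genes was 4-fold apart, of which 4 passed the filter, and 5.02% of all genes were. Tmem51 had 12.9 CPM in GROs and 4.27 CPM in FGOs (ratio -1.49), and 14 of 24 GROs lay above every FGO. Igsf21 had 0.531 and 1.29 CPM (ratio 0.80) and Mpo 8.25 and 8.93 CPM (0.11). Between 6 dpp and in vivo FGOs none of the 8 was 4-fold apart either (0.363% of all genes), with 5 past the filter. Igsf21 had a ratio of 1.76 there, Mpo of -1.45 and Tmem51 of 0.56.

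Between the stages of one culture the genes went different ways. From iPSC-derived GROs to FGOs, 2 of the 8 were 4-fold lower, Sis (17.7 to 2.76 CPM, ratio -2.48) and Manba (27.0 to 5.80 CPM, -2.12), where 4.74% of all genes were 4-fold apart in either direction. The Manba call was lost at a pseudocount of 2 CPM (-1.89). Naip6 had the highest ratio (1.56), Spesp1 had -0.53 and Pak3 0.36, and Mpo had -1.72, which was past the limit at a pseudocount of 0.1 CPM (-2.24). From gonad-derived GROs to FGOs 1 of the 8 was 4-fold apart, Igsf21, from 1.45 to 11.8 CPM (ratio 2.66), with 2.75% of all genes, and 3 passed the filter. This call was lost with means of logs (1.87). Mpo had a ratio of -0.33 and Tmem51 of 0.24 in that culture.

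For each gene the 5 nearest genes on either side with at least 1 CPM in a group were listed, 80 in all. Of these 1 was 4-fold apart between iPSC-derived and gonad-derived oocytes at each stage, Slc39a8, a zinc and manganese transporter gene. Of all genes tested, 0.345% were 4-fold higher and 0.23% lower in GROs, and 0.442% and 0.272% in FGOs. Nothing is read from a count of 1 beside these shares. Slc39a8 lies 245 kb beyond the end of Manba and went the other way, with ratios of -5.36 in GROs and -4.43 in FGOs. Slc39a8 was at 25.8 CPM in gonad-derived GROs (0 to 144, median 15.6) and at 17.9 CPM in gonad-derived FGOs, where 3 of 24 oocytes were above 1 CPM, the median was 0 and oocyte 17 had 322 CPM. Without that oocyte the gonad-derived FGOs had 5.80 CPM and the ratio was -2.88. In iPSC-derived FGOs Slc39a8 was at 0.355 CPM, with a median of 0.0642 CPM and 3 of 24 oocytes above 1 CPM as well. The FGO difference thus lay in a few gonad-derived oocytes. It stood at 0.140 CPM in iPSC-derived GROs and 0.0927 CPM in in vivo GROs. Between Manba and Slc39a8 lies Nfkb1, which encodes a subunit of NF-kappaB, with ratios of 0.70 and 1.06. The nearest listed genes to Spesp1 were A730043L09Rik (-0.92 and -1.55) and Anp32a (0.15 and 0.05). Those to Sis were Sptssb, 3027 kb away (-0.65 and -0.36), and Bche (-0.16 and -0.47). Pak3 lies between Chrdl1 (1.55 and 0.96) and Alg13 (-0.20 and 0.32). Smn1, the listed gene before Naip6 in chromosomal order, had ratios of 0.08 and 0.14. Tas1r2 and Arhgef10l, the nearest listed genes on either side of Igsf21, had ratios between -0.59 and 0.12. Among the listed genes Mpo lies between Supt4a (0.08 and 0.58) and Mks1 (0.32 and 0.15), and Tmem51 between 4930455G09Rik (-0.44 and -0.61) and Kazn (-0.63 and -0.31). Genes under 1 CPM in every group may lie nearer.

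**Figure D3:**
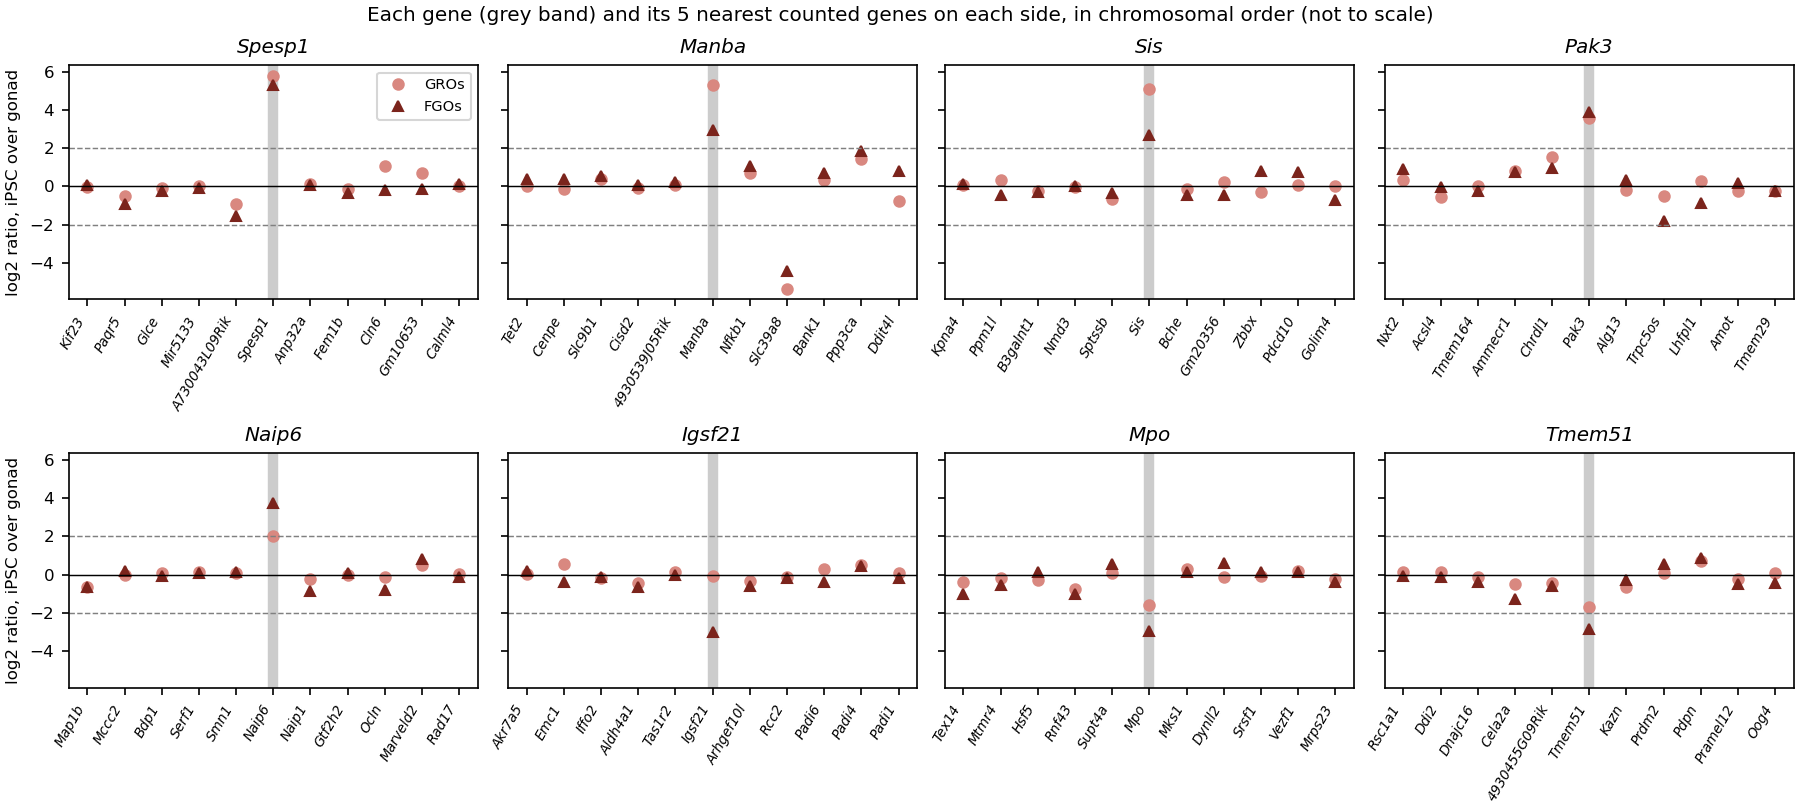
log2 ratio of iPSC-derived over gonad-derived oocytes (pooled CPM + 0.5) for each of the 8 genes, on a grey band, and 5 counted genes on either side in chromosomal order, in GROs (circles) and FGOs (triangles); distances are not to scale. All 80 neighbours lie within the dashed 4-fold lines at both stages but Slc39a8 beside Manba, at -5.36 and -4.43.

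Over all oocytes of the 7 groups the genes whose pattern on the log2(CPM + 1) scale was most like a member's were sought among 12486 genes with at least 1 CPM in a group. These correlations mix differences between groups with differences within them and are given as a description. Sis and Manba were the most alike of all (r = 0.96), and both came next to Gm20098 (0.93 and 0.92) and Ralgds (0.92 and 0.93), which encodes a Ral guanine nucleotide exchange factor. Ralgds stood at 471 CPM in iPSC-derived and 41.1 CPM in gonad-derived GROs. Spesp1 went with Slc27a2 (0.94), a fatty acid transporter gene, Mcub (0.93) and Rab17 (0.92), and Pak3 with Spesp1 (0.91), Tnr (0.88) and Slc27a2 (0.87). Slc27a2 was at 14.4 and 0.318 CPM in iPSC-derived and gonad-derived GROs. For the other members the nearest genes were less alike: Hps5 (0.61), Inpp4b (0.60) and Il12b (0.60) for Naip6, and Smoc2, Wdr72 and C2cd2l (0.53, 0.53 and 0.52) for Igsf21. Psg17 (0.60), Cdc42bpa (0.57) and Mtmr7 (0.56) were nearest to Mpo, and Gpx6 (0.55), Tcstv1 (0.54) and Fam186a (0.54) to Tmem51.

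With the group means removed, the likeness of the iPSC-high genes was mostly gone: r was 0.07 for Sis and Manba and -0.03 for Pak3 and Spesp1. Sis and Pak3 had r = 0.27, with 0.43 in iPSC-derived GROs and 0.57 in iPSC-derived FGOs. Among the genes that were low in iPSC-derived FGOs, r was 0.43 for Mpo and Tmem51, 0.30 for Mpo and Igsf21 and 0.25 for Igsf21 and Tmem51. For Mpo and Tmem51 r was positive in each of the 7 groups, from 0.23 in in vivo FGOs to 0.63 in 6 dpp FGOs. For Mpo and Igsf21 it ranged from -0.19 in in vivo GROs to 0.64 in gonad-derived FGOs and was also below 0 in iPSC-derived FGOs (-0.04) and 6 dpp FGOs (-0.02). For Igsf21 and Tmem51 it ranged from -0.03 in in vivo FGOs to 0.43 in 6 dpp FGOs. Mpo and Tmem51 were both above 1 CPM in 5 of 24 iPSC-derived, 18 of 24 gonad-derived, 14 of 24 6 dpp and 20 of 20 in vivo FGOs. The correlation of each member with the total reads of an oocyte, group means removed, lay between -0.10 and 0.14.

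Markers of pluripotent cells were checked because the iPSC-derived oocytes began as such cells. Of 8 markers, Nanog, Tdgf1 and Utf1 were at 0.0941 CPM or less in every group, and Dppa5a, also expressed in germ cells, made most of the sum. The group medians of the sum were 1010 CPM in iPSC-derived and 1044 CPM in gonad-derived GROs, and 356 and 283 CPM in FGOs. Klf4 was at 9.36 CPM in iPSC-derived and 2.57 CPM in gonad-derived GROs, and at 8.89 and 3.28 CPM in FGOs. Zfp42 was at 4.16 and 1.75 CPM in GROs and at 1.55 and 0.246 CPM in FGOs. Esrrb lay the other way at both stages, with 50.4 CPM in iPSC-derived and 57.8 CPM in gonad-derived GROs and 31.9 and 41.0 CPM in FGOs. Sox2 was at 1.00 and 1.13 CPM in GROs and at 1.14 and 0.431 CPM in FGOs, and Dppa5a at 943 and 977 CPM in GROs and 303 and 232 CPM in FGOs. Within groups the summed markers and the members correlated at -0.04 to 0.09. The part of residual pluripotent transcripts in the member values was not tested.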

How the data were processed

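Single oocytes were sequenced by Smart-seq2 (single-end reads). The deposited table holds whole-number counts of reads for each gene and oocyte, made by the authors, per the study's methods, with STAR on GRCm38 (mm10) plus spike-in sequences and with QuasR from uniquely mapped reads on exons of 1 randomly chosen transcript of each gene. Strand use in counting is not stated. The deposited exonic length (other) was used only for RPKM, and it equals the length of no GENCODE M21 transcript for any of the 8 genes. Of 21950 genes, 21907 matched RefSeq (GRCm38.p6). Totals ran from 2.17 M to 13.7 M reads, and no 2 oocytes of a group had identical counts. Groups came from the labels, each group was taken as 1 sample, and no test was run.

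Counts were summed per group to CPM with exact Poisson 95% intervals. Ratios used a pseudocount of 0.5 CPM, the size rule was 4-fold and genes entered a comparison with CPM above 1 in at least 3 oocytes of its groups. Shared windows are 75 bases, the length of a read. The steps were tested on simulated counts. Members, gene lists, marker lists and alternatives were chosen with earlier results of these data known. The rule named, beside the members, the 3 genes most alike to each, neighbours 4-fold apart or else the nearest on each side, and list genes 4-fold apart, of which there were none. Other list, marker and neighbour genes named were chosen after their values were seen. Scaling alternatives used edgeR 4.0.16 and DESeq2 1.42.0 (R 4.3.3), and other steps Python 3.11.15, numpy 2.4.6, pandas 2.3.3 and scipy 1.17.1. Sequences before gene starts are from RefSeq.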

Additional observations from a re-analysis of the deposited data

How the results depend on the processing

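Each of the 96 member ratios was recomputed under other settings, 872 values in all, and 0 of those past 4-fold changed sign while 39 crossed the 4-fold limit. Between iPSC-derived and gonad-derived oocytes 11 of 144 crossed it. A pseudocount of 2 CPM, which by construction shrinks ratios of low genes, left 3 members 4-fold apart in GROs in place of 5, 5 in FGOs in place of 8, and 1 at both stages in place of 5, namely Spesp1. A pseudocount of 0.1 CPM put 1 member, Igsf21 (2.03), past the limit between 6 dpp and in vivo FGOs in place of 0. TMM and DESeq2 factors, medians and means of logs gave counts within 1.5 times for these comparisons, though with other members in GROs: Naip6 (1.30 and 1.32) dropped out with medians and means of logs, while Mpo (-2.88) came in with medians and Tmem51 (-2.24) with means of logs. In comparisons of gonad-derived oocytes with in vivo FGOs, 6 dpp FGOs and their own GROs, where few members were past the limit, Igsf21 and Tmem51 crossed it under medians or means of logs, with the values given above. Counts of the former comparisons after thinning to 2000000 reads were within 1.5 times too, where Naip6 in GROs had a ratio of 1.77. With each oocyte left out in turn the count in GROs and at both stages was 4 to 5, and 8 in FGOs. At a pseudocount of 2 CPM the growth of Igsf21 in gonad-derived oocytes was just under the limit, and Tmem51 between gonad-derived and in vivo FGOs had 1.94. At 0.1 CPM Pak3 between gonad-derived and in vivo GROs had -2.40. Scaling moved the median of all genes by less than 0.1. Growth in vivo without in vivo FGO 7 again had 0 members past the limit. No paired analysis was possible because the oocyte numbers in the labels do not tie oocytes of different groups together and no test was run. Depth limits a group value to about 0.02 CPM (3 reads), and each group is 1 sample, so the spread between animals or cultures is not known. Leaving out 6 dpp FGO 12, or the oocyte with most Slc39a8, was chosen after seeing the data.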
